A study of Mus musculus with 9 samples.

Results

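Arc and the 3 Homer genes of the mouse, Homer1, Homer2 and Homer3, were followed in the olfactory bulb after odor. These 4 genes were found in the deposited table by their symbols, 1 row each among 27497 identifiers, and all 4 were among the 12780 genes tested. Their identifiers were ENSMUSG00000022602 (Arc), ENSMUSG00000007617 (Homer1), ENSMUSG00000025813 (Homer2) and ENSMUSG00000003573 (Homer3). The 9 mice were adult C57/BL6 animals of 6 to 8 weeks or older, 3 in each group. Clean air mice had been kept in carbon-filtered air, 30 min mice were taken at the end of 30 min with a mixture of odorants, and 120 min mice had the same 30 min of odorants and then 90 min of clean air. The series asks which transcripts respond to natural neuronal activity in the living animal, and how fast. Whole bulbs were used, so that fewer cells expressing a gene and less of its RNA per cell cannot be told apart.

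Arc encodes a cytoskeleton-associated protein that neurons make when they are active. The protein enters dendritic spines, binds the endocytic machinery and promotes removal of AMPA-type glutamate receptors from the synapse. Homer proteins are scaffolds of the postsynaptic density: an amino-terminal EVH1 domain binds proline-rich motifs of group I metabotropic glutamate receptors, Shank proteins and inositol trisphosphate receptors, and a carboxy-terminal coiled coil joins Homer molecules into a lattice. The Homer1 gene also gives a short form, Homer1a, that is induced by activity and ends before the coiled coil, so that it competes with the long forms for their partners. Homer2 and Homer3 are known chiefly as long, constitutive scaffolds.

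The annotation shows what a single Homer1 value sums. GENCODE M21 lists 12 transcripts of Homer1, 11 of them coding, whose products run from 180 to 370 residues. Among them are a transcript of 5713 nt with a 186-residue product and transcripts of 3052 and 2765 nt with products of 366 and 354 residues. Homer2 has 4 coding transcripts with products of up to 354 residues, Homer3 has 5 with products of up to 359, and both transcripts of Arc encode 396 residues. The table has 1 value per gene and mouse, so short and long Homer1 forms were not separated. The gene length behind each value was not stated in the labels. A shift between forms of different length would also move the Homer1 value, and levels of different genes are compared per kilobase only within this limit.

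The promoters of the Homer genes are shown because the 120 min mice stood apart for Homer1 and not for Homer2 or Homer3, as given below. Of the 4 genes, 3 had entries in the RefSeq promoter table, whose build (GRCm38.p6) is later than the mm9 build of the deposited values. Each sequence is the 250 bases before the upstream listed start, 5′ to 3′ on the strand of the gene, at chr13:93303507-93303756 (plus strand) for Homer1, chr7:81706926-81707175 (minus strand) for Homer2 and chr8:70282749-70282998 (plus strand) for Homer3. Capitals mark the sequence TGACGT, the core of the cAMP response element, searched on both strands.
Homer1: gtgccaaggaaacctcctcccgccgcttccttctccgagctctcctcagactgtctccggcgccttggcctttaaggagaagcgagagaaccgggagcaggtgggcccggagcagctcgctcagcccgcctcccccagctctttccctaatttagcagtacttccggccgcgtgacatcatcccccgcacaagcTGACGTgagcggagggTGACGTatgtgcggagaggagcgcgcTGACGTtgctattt
Homer2: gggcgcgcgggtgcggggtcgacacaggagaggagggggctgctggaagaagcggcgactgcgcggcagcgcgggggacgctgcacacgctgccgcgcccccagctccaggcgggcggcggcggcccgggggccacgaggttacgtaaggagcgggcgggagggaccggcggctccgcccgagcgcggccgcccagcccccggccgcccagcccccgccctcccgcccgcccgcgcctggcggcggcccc
Homer3: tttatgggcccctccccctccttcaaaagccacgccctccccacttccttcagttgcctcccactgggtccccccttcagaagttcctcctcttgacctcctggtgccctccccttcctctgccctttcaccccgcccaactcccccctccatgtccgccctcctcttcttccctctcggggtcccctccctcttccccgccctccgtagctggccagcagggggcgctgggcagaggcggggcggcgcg
The Homer1 window holds 3 copies of TGACGT, at positions -56 to -51, -40 to -35 and -14 to -9 before the start, all on the strand of the gene. The Homer2 and Homer3 windows hold none, nor do the windows of the second listed starts of Homer1 and Homer2. Of 32851 promoter windows of the same 250 bases, 6.47% hold at least 1 copy and 0.152% hold 3 or more. None of the 3 windows holds the full palindrome TGACGTCA, which includes TGACGT and is found in 1.55% of windows, an SRF CArG box (1.47%) or TATAAA (12.4%), and the second Homer2 window holds 1 TATAAA. GC content was 62.4% in the Homer1 window, 83.2% in that of Homer2 and 68% in that of Homer3. These matches describe letters in a window and not binding, and Arc is not among the printed sequences. Whether the matches bear on Homer1 levels was not tested, and the Homer1 difference at 120 min was not called.

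Library depth, recovered from the spacing of the deposited values, was 10.5 to 29.9 megareads in the clean air mice, 8.81 to 28.8 at 30 min and 7.14 to 24.1 at 120 min. At these inferred depths, the lowest value of the 4 genes corresponded to 109 reads per kilobase of gene, which is a derived rate and not a count. Abundant markers of the bulb's neurons were present in every library. The granule cell and interneuron genes Gad1 and Synpr were at 279.8 and 249.4 RPKM or more, and the mitral and tufted cell genes Doc2g and Slc17a7 at 370.2 and 324.4 RPKM or more. Other listed neuron markers were low, among them Slc17a6 (2.96 to 5.39 RPKM), Lhx1 (0 to 1.23 RPKM) and Pitx3 (0 to 0.23 RPKM). The listed interneuron markers Slc32a1, Pcp4 and Tshz1 were not found. Of 8 markers of frontal cortex excitatory neurons, whose summed level was 47.8 to 72.6 RPKM in clean air, 48.6 to 61.5 at 30 min and 46.0 to 64.5 at 120 min, Neurod6 was at 1.09 RPKM or less and Tbr1 at 4.2 to 6.7 RPKM. Cux2 (18.25 to 30.51 RPKM) and Bcl11b (14.68 to 28.46 RPKM) made up most of that sum. None of 54 tested markers of 10 cell types was called in any comparison, where 18, 11 and 10 of all 12780 tested genes were called at 30 min, at 120 min and between these times, so that a count of 0 is near the background. The 4 red blood cell markers summed to 38 to 144.8 RPKM in clean air, 152.7 to 196.8 at 30 min and 46.3 to 188.5 at 120 min, with the pair of alpha-globin rows at 0, and their part in the results was not tested.

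Arc was high at 30 min and much lower at 120 min, with a mean still above that of clean air. Clean air mice 1, 2 and 3 had 15.11, 21.03 and 39.99 RPKM, 30 min mice 246.81, 272.53 and 336.19 RPKM, and 120 min mice 43.29, 39.53 and 34.75 RPKM. Every 30 min mouse was far above the other 6 animals, while clean air mouse 3 lay inside the range of the 120 min group. Arc rose from 25.4 ± 13.0 RPKM (mean ± SD, n = 3 mice per group here and below) to 285 ± 46.0 RPKM, and then fell to 39.2 ± 4.28 RPKM. By rank of mean level it moved from 3029th of 12780 tested genes in clean air to 131st at 30 min and 1978th at 120 min.

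On the log2(RPKM + 0.5) scale the rise of Arc at 30 min was 3.57 ± 0.29 (estimate ± SE, limma, adjusted p = 0.000276). This is an 11.9-fold increase with a 95% interval of 7.58 to 18.6, and among the tested genes only Fos had a larger log2 difference (4.53). Between 30 and 120 min Arc fell by 2.84 ± 0.29 (limma, adjusted p = 0.00344), or 7.17-fold with an interval of 4.58 to 11.2. Both calls were kept in all 21 alternatives tried. At 120 min Arc was 0.73 ± 0.29 above clean air and not called (limma, adjusted p = 0.475, unadjusted p = 0.0309, with a fold interval of 1.06 to 2.59). The missed threshold does not show that this difference was absent. Leaving out clean air mouse 3 moved that difference to 1.11 (limma, adjusted p = 0.154), and leaving out clean air mouse 1 moved it to 0.42 (adjusted p = 0.555).

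Homer1 showed the other order in time. Clean air mice had 12.34, 14.36 and 5.55 RPKM, 30 min mice 12.34, 17.35 and 10.7 RPKM, and 120 min mice 29.17, 44.51 and 24.98 RPKM. All 120 min mice were above all mice of the other groups, while clean air and 30 min mice overlapped. Group means were 10.8 ± 4.62, 13.5 ± 3.46 and 32.9 ± 10.3 RPKM. In rank the gene went from 6000th in clean air and 5340th at 30 min to 2393rd at 120 min.

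The log2 difference of Homer1 between 120 min and clean air was 1.63 ± 0.34, a 3.09-fold difference with a 95% interval of 1.84 to 5.19. It was not called over all genes (limma, adjusted p = 0.310, unadjusted p = 0.000594), although only 17 tested genes had a larger positive difference. That outcome depended on whether mouse number entered the fit, as given in the last section. Between 30 and 120 min it was 1.24 ± 0.34, or 2.37-fold with an interval of 1.41 to 3.98, also not called (limma, adjusted p = 0.999, unadjusted p = 0.00387). At 30 min Homer1 differed from clean air by 0.38 ± 0.34 (limma, adjusted p = 0.858), and without clean air mouse 3 by -0.013. The interval at 30 min allowed a fold of 0.777 to 2.19. The missed threshold at 120 min therefore does not show that Homer1 stayed level, and the overlap at 30 min does not show that it had not begun to change.

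Homer2, the scaffold that had the highest mean of the 3 Homer genes in clean air, spanned a narrow range. Its values were 22.53, 16.26 and 18.96 RPKM in clean air, 29.68, 21.49 and 23.57 at 30 min and 30.23, 23.37 and 22.16 RPKM at 120 min. The groups overlapped in every comparison, although only clean air mouse 1 reached into the range of either exposed group. Means were 19.3 ± 3.15, 24.9 ± 4.26 and 25.3 ± 4.35 RPKM. The log2 difference from clean air was 0.36 ± 0.19 at 30 min and 0.38 ± 0.19 at 120 min (limma, adjusted p = 0.832 and 0.567), with fold intervals of 0.959 to 1.72 and 0.972 to 1.75. From 30 to 120 min it was 0.02 ± 0.19 (limma, adjusted p = 0.999), with a fold interval of 0.756 to 1.36.

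Homer3, a Homer protein best known from cerebellar Purkinje cells, had close group means and wide scatter. It had 22.41, 7.95 and 19.07 RPKM in clean air, 20.01, 11.77 and 16.1 at 30 min and 17.9, 11.61 and 18.34 RPKM at 120 min. The groups overlapped throughout, with the lowest value of each group in the mouse numbered 2. Means were 16.5 ± 7.57, 16.0 ± 4.12 and 16.0 ± 3.76 RPKM. The log2 differences were 0.05 ± 0.35 against clean air at either time and 0.00 ± 0.35 between the times (limma, adjusted p = 0.98 or above), and the sign of the 30 min difference turned under median ratio and upper quartile scaling (-0.011 and -0.0012). Against clean air the fold interval was 0.601 to 1.78 at 30 min and 0.602 to 1.78 at 120 min. Changes within those bounds are not excluded, and the bounds are not limits of detection.

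**Figure D1:**
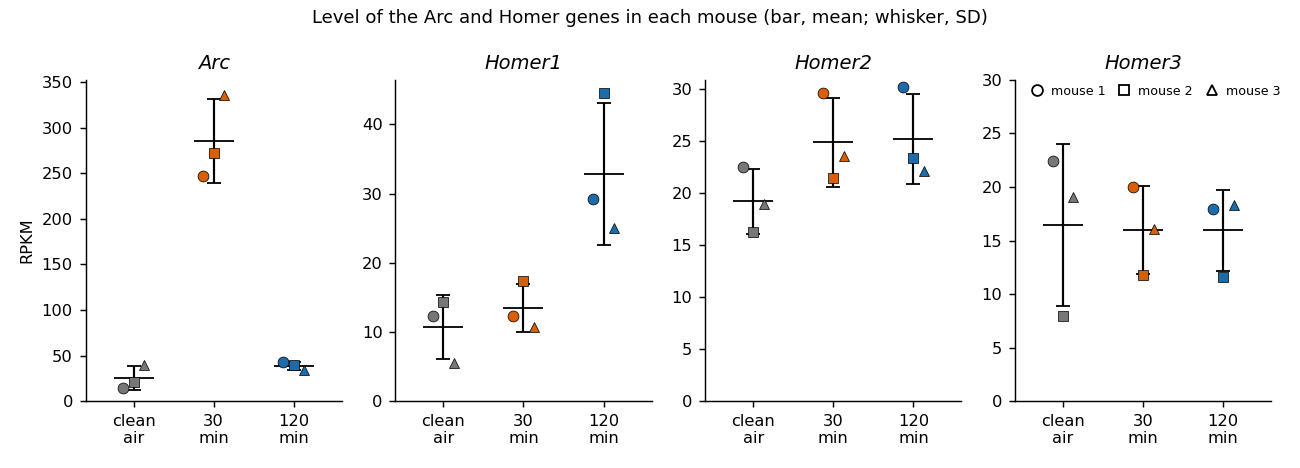
RPKM of Arc, Homer1, Homer2 and Homer3 in each mouse (symbols, mouse numbers 1 to 3), by group, with the mean (bar) and SD (whisker); each panel has its own axis from 0. Arc stands at 246.81 to 336.19 RPKM in the 30 min mice alone, Homer1 at 24.98 to 44.51 RPKM in the 120 min mice, and the groups overlap for Homer2 and Homer3.

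Counted against the background, 1 of the 4 genes, Arc, was called higher at 30 min, where 0.133% of all tested genes were. None of the 4 was called higher at 120 min, against 0.0704% of all tested genes, and 1, again Arc, was called lower at 120 min than at 30 min, against 0.0782%. Groups that did not overlap were found for Arc alone at 30 min against clean air (11.4% of tested genes in either direction), for Homer1 alone at 120 min against clean air (13.1%), and for Arc and Homer1 between 30 and 120 min (10.6%). With so few genes chosen for known patterns, these counts describe the 4 genes and not a class. The 3 comparisons share samples, so that the values of a gene in them are not independent.

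**Figure D2:**
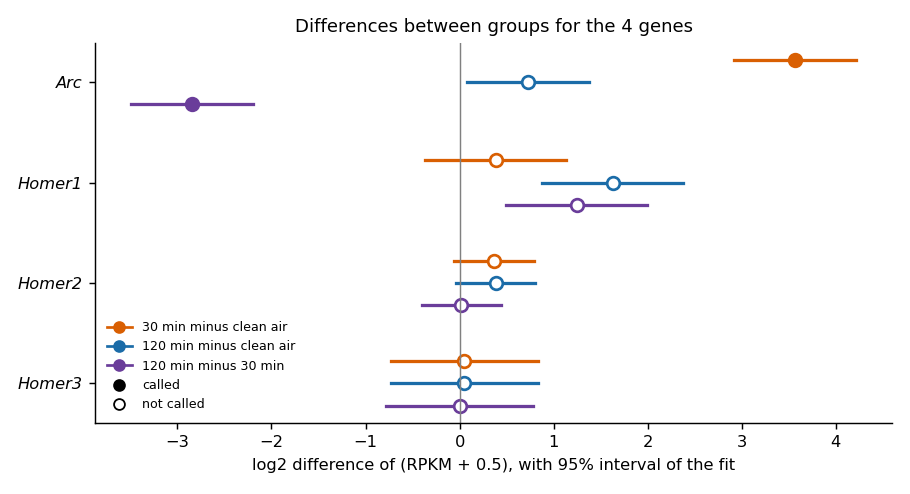
Log2 differences of (RPKM + 0.5) between groups for the 4 genes, with 95% intervals of the limma fit; filled points were called at an adjusted p under 0.05. Arc is called at 3.57 (30 min minus clean air) and -2.84 (120 min minus 30 min), the intervals of Homer1 lie above 0 for both comparisons with 120 min but the points are not called, and those of Homer2 and Homer3 span 0.

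The balance between Arc and Homer1 was taken within each mouse, where the size of the library cancels. Differences between libraries by GC content, given below, need not cancel. None of the 4 ratios compared was tested on values corrected for GC content. Arc was 1.22, 1.46 and 7.21 times as abundant per kilobase as Homer1 in clean air mice 1, 2 and 3. At 30 min the ratio ran from 15.7 in mouse 2 to 31.4 in mouse 3, and at 120 min it was 1.48, 0.888 and 1.39. The 30 min mice lay apart from all others, and clean air mouse 3, which had the most Arc and the least Homer1 of its group, lay apart from the other clean air mice. Mean log2 ratios were 1.19 ± 1.35, 4.37 ± 0.50 and 0.29 ± 0.40 in clean air, at 30 min and at 120 min. The exact permutation test over the 3 groups gave p = 0.0179, and p = 0.0716 after adjustment over the 4 ratios compared, so that the difference did not pass (smallest possible p = 0.00357). Over all single mice left out the adjusted p ran from 0.0286 to 0.214 (exact permutation), and it passed only without clean air mouse 1 (0.0286) or 2 (0.0428).

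**Figure D3:**
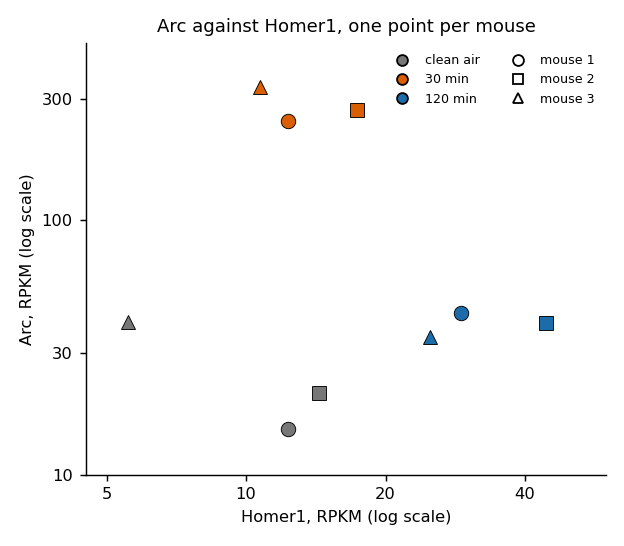
Arc against Homer1 in RPKM, 1 point per mouse, both axes logarithmic. The 30 min mice lie high at 246.81 to 336.19 RPKM of Arc with 10.7 to 17.35 RPKM of Homer1, the 120 min mice lie to the right at 24.98 to 44.51 RPKM of Homer1, and clean air mouse 3 lies apart at 39.99 RPKM of Arc and 5.55 RPKM of Homer1.

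Among the Homer genes, Homer1 moved from the smallest to the largest mean. Its share of the summed Homer RPKM was 21.5%, 37.2% and 12.7% in clean air mice 1, 2 and 3. The shares were 19.9%, 34.3% and 21.2% at 30 min and 37.7%, 56.0% and 38.1% at 120 min. Each 120 min mouse had a larger share than every other animal, but mouse 1 exceeded clean air mouse 2 only narrowly. Homer2 was above Homer1 in 3 of 3 clean air mice, 3 of 3 mice at 30 min and 1 of 3 at 120 min. Homer3 was above Homer1 in 2 of 3, 2 of 3 and 0 of 3.

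The log2 ratio of Homer1 to Homer2 was -0.90 ± 0.76 in clean air, -0.88 ± 0.50 at 30 min and 0.34 ± 0.51 at 120 min (exact permutation p = 0.0929, adjusted 0.186). That of Homer1 to Homer3 was -0.57 ± 1.27, -0.23 ± 0.67 and 1.01 ± 0.78 (exact permutation p = 0.229, adjusted 0.305). Neither passed. Over all single mice left out the adjusted p of each ran from 0.0476, without clean air mouse 2, to 0.524, without 120 min mouse 2 (exact permutation). The ratio of Homer2 to Homer3, 0.33 ± 0.57, 0.65 ± 0.17 and 0.66 ± 0.36, did not pass (exact permutation p = 0.557, adjusted 0.557). The summed Homer RPKM was 38.6 to 57.3 in clean air, 50.4 to 62.0 at 30 min and 65.5 to 79.5 at 120 min, so that the 120 min mice were also highest in the total.

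**Figure D4:**
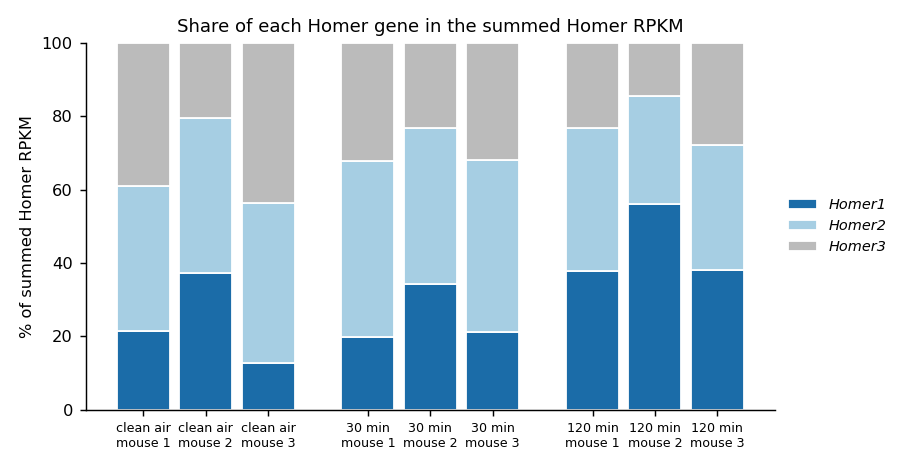
Share of Homer1, Homer2 and Homer3 in the summed Homer RPKM, 1 bar per mouse. Homer1 makes up 37.7% to 56.0% in the 120 min mice and 12.7% to 37.2% in the clean air mice.

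Within groups the 4 genes also differed by mouse number, the number in the sample titles. The submitters' own codes for mice numbered 1, 2 and 3 end in 1, 2 and 5 in clean air and in 1, 3 and 4 at both odor times, so codes and titles do not match throughout. The mouse numbered 2 had the highest Homer1 and the lowest Homer3 value in all 3 groups, and the mouse numbered 1 had the highest Homer2 value in all 3. Averaged over the groups, mouse number 2 deviated by 0.45 for Homer1 and by -0.56 for Homer3 on the log2 scale, and mouse number 3 by -0.48 for Homer1. Larger absolute mean deviations at that number were seen in 6.1%, 2.97% and 2.39% of tested genes. For Arc the mice stood in the order 1, 2, 3 from low to high in clean air and at 30 min, and in the reverse order at 120 min.

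Base composition moved with the same numbers. Over 12132 tested genes with an annotated transcript, the mean deviation at mouse number 2 had a Pearson correlation of -0.457 with GC content, and at numbers 1 and 3 it was 0.165 and 0.388. Genes share the libraries and are not independent, so these describe the libraries only. The longest coding transcript had a GC content of 36.9% for Homer1, 44.4% for Homer2, 60.2% for Homer3 and 59.0% for Arc, against a median of 50.4% over the longest transcripts of those genes. After a correction of each library for GC content, chosen after seeing the data, Homer1 had 14.0, 11.8 and 6.48 RPKM in clean air, 13.4, 12.9 and 10.6 at 30 min and 31.6, 37.8 and 29.2 RPKM at 120 min. The mouse numbered 2 was then highest in the 120 min group alone, and the 120 min difference from clean air was 1.62 (limma, adjusted p = 0.0802). Homer3 stayed lowest in the mouse numbered 2 of each group, with 7.99, 13.5 and 12.4 RPKM.

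**Figure D5:**
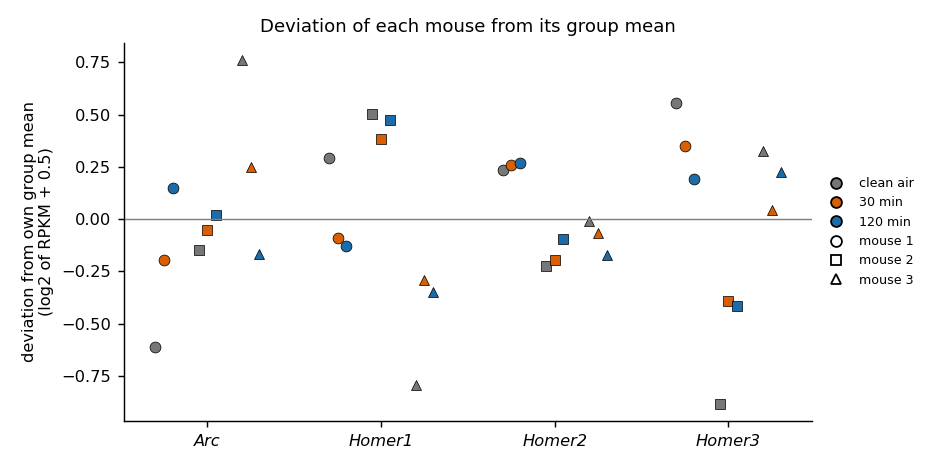
Deviation of each mouse from the mean of its own group, on the log2(RPKM + 0.5) scale, with colours for groups and symbols for mouse numbers. Mouse number 2 lies above 0 for Homer1 and below 0 for Homer3 in all 3 groups, while clean air mouse 3 is 0.76 above its group for Arc and 0.79 below it for Homer1.

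Genes whose products act with ARC had differences near those of all genes. Of 22 listed, 21 were tested and 0 were called in any comparison, which is near the background of 18, 11 and 10 of 12780 genes called. Their median log2 difference was 0.05 at 30 min and 0.07 at 120 min against clean air, beside 0.08 and 0.03 over all tested genes. Abundant members were near level: the vesicle-scission GTPase gene Dnm1 had 540 ± 62.7 RPKM in clean air, then 497 ± 82.7 and 532 ± 40.4 at 30 and 120 min. The kinase gene Camk2b, whose product binds ARC at inactive synapses, had 466 ± 44.2, 458 ± 28.8 and 467 ± 33.8 RPKM, and Dlg4, the gene of PSD-95, had 316 ± 9.38, 341 ± 21.7 and 361 ± 28.0 RPKM. The adaptor subunit genes Ap2b1 and Ap2s1 had 0.30 ± 0.16 and -0.38 ± 0.21 at 30 min.

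Partners of the Homer proteins had medians of 0.05 at 30 min and 0.10 at 120 min against clean air, beside 0.08 and 0.03 for all tested genes. Of 19 listed, 18 were tested and 0 called in any comparison, again near the background. Grm5, a metabotropic glutamate receptor gene, had a difference at 120 min of 0.33 ± 0.19 (limma, adjusted p = 0.633). Ryr1, a ryanodine receptor gene, had 2.45 ± 0.63 RPKM at 120 min against 3.79 ± 0.68 in clean air (-0.56 ± 0.23, limma, adjusted p = 0.491). Among abundant members, Agap2, the gene of the GTPase PIKE (Centg1 in the table), had 338 ± 25.9 and 336 ± 44.1 RPKM, the actin-binding drebrin gene Dbn1 176 ± 36.9 and 170 ± 1.71, and the scaffold gene Dlgap4 128 ± 18.9 and 141 ± 12.01 RPKM in clean air and at 120 min.

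Factors that act on the Arc gene had 0 called members, near the background share. All 12 listed were tested, and 11 were above clean air at 120 min, with a median of 0.45 beside 0.03 for all tested genes. At 30 min 8 of 12 were above clean air, with a median of 0.23 beside 0.08. Of all 12780 tested genes, 6884 were above clean air at 120 min and 7901 at 30 min. Mef2a, a member of the MEF2 family that binds the Arc enhancer, had means of 28.1 ± 4.24, 44.1 ± 4.61 and 51.1 ± 5.33 RPKM in time order. Its difference at 120 min was 0.86 ± 0.16 (limma, adjusted p = 0.224). Mef2d and Mef2c had 0.69 ± 0.20 and 0.48 ± 0.24 at 120 min, and Mkl2, the gene of an SRF coactivator, had 0.81 ± 0.19 (limma, adjusted p = 0.339). The ternary complex factor gene Elk1 and the CREB coactivator gene Crtc1 had 0.19 ± 0.18 and 0.11 ± 0.17 at the same time.

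Other effector genes induced by neuronal activity gave the setting for the time courses of Arc and Homer1. Of 23 listed, 22 were tested, 1 was called higher at 30 min (Cyr61), 0 at 120 min, and 1 lower at 120 min than at 30 min (Cyr61 again), beside 0.133%, 0.0704% and 0.0782% of all tested genes. Medians were 0.29 at 30 min and 0.37 at 120 min, beside 0.08 and 0.03 for all tested genes. Cyr61, the gene of a secreted matrix protein, followed the order of Arc, with 2.32 ± 0.30, 15.6 ± 8.61 and 2.05 ± 0.62 RPKM. Sik1, a kinase gene (Snf1lk in the table), had 14.4 ± 4.35, 29.6 ± 0.53 and 18.4 ± 1.90 RPKM and was not called (limma, adjusted p = 0.154 at 30 min). The convertase gene Pcsk1, whose product cleaves prohormones, and the aggrecan gene Acan had their highest means at 120 min, as Homer1 did. They had 14.0 ± 2.28 and 6.12 ± 0.34 RPKM there against 6.70 ± 1.04 and 3.62 ± 0.53 in clean air, and neither was called (limma, adjusted p = 0.182 and 0.339). The abundant Dclk1, Vgf and Rheb had 0.64 ± 0.23, -0.12 ± 0.21 and 0.08 ± 0.20 at 120 min.

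The genes most like Arc over the 9 mice are known as immediate-early genes. Pearson correlations of log2(RPKM + 0.5) with Arc were 0.986 for Egr1, 0.981 for the phosphatase gene Dusp1, 0.976 for Nr4a1, 0.973 for Junb and 0.973 for Fos. All 5 were highest in clean air mouse 3 among the clean air mice, as Arc was. They were picked by likeness over all 9 mice, that mouse included, so this is not separate evidence. Egr1, a zinc finger factor, had 21.24, 22.29 and 67.52 RPKM in clean air mice 1, 2 and 3, the same order as for Arc. Dusp1 (12.69, 11.8 and 18.1 RPKM) and Fos (4.73, 4.04 and 12.1 RPKM) were lowest in clean air mouse 2 instead. Group means at 30 and 120 min were 307 ± 12.9 and 59.1 ± 3.21 RPKM for Egr1, 56.6 ± 7.49 and 17.6 ± 0.68 for Dusp1, and 207 ± 30.7 and 33.3 ± 3.27 for Junb.

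The closest matches to Homer1 were weaker. They were Ugcgl1 (0.948), Tle1 (0.941), Tacc1 (0.924), Cnot4 (0.923) and Ubn1 (0.923), and none was called in any comparison. Tacc1, with the highest level of these, had 22.8 ± 3.83 RPKM in clean air, 26.8 ± 1.62 at 30 min and 32.8 ± 2.41 at 120 min. Closest to Homer2 were Mib1 (0.990), Fnbp1 (0.988) and 6230409E13Rik (0.985), and closest to Homer3 were the channel gene Hcn2 (0.977), Pcx (0.962) and Cnbp (0.961). Those 6 genes were not called either. Among the members themselves the correlation was -0.162 for Arc with Homer1, 0.383 for Arc with Homer2 and 0.0297 for Arc with Homer3. It was 0.342 for Homer1 with Homer2, -0.292 for Homer1 with Homer3 and 0.565 for Homer2 with Homer3. These values share 9 libraries, their groups and their deviations by mouse number, and they describe likeness of pattern only.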

How the data were processed

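The 9 libraries were polyadenylated RNA of mouse olfactory bulb, 3 per group. Per the submitters' processing notes the genome build was mm9 and Bowtie was used. Not given in the sources used here: gene lengths, annotation, counting rule, use of strand and treatment of isoforms. The authors deposited RPKM (reads scaled by gene length and library size) for 27497 Ensembl identifiers, rounded to 2 decimals, and no further scaling was applied. The code in each sample's description gave its column.

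The 4 genes were found by symbol. All 12780 genes averaging 1 RPKM or more were fitted together (limma 3.58.1 under R 4.3.3, trended eBayes) after transformation to log2(RPKM + 0.5), with 1 term per group and 6 residual degrees of freedom, so fold changes of low genes are understated. Tests were two-sided with Benjamini-Hochberg adjustment over all genes tested, and called means an adjusted p under 0.05. The fit was checked on simulated data with noise drawn independently for each gene and mouse. That check does not cover deviations shared by mouse number or tied to GC content. Ratios between 2 of the genes were compared over the 3 groups with an exact permutation test of the F statistic.

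The members, the 4 lists of related genes and the 10 marker lists were chosen with earlier results of these data known. Of 76 listed related genes 74 were found, 1 of them by identifier through GENCODE M21, and 73 were tested. Named from these lists were members called in any of the 3 comparisons, the 3 with the highest mean RPKM, and the 2 with the lowest unadjusted p against clean air at each time. Some genes this rule names are not reported here. Likeness was Pearson correlation over the 9 mice among tested genes with a symbol, naming 5 genes each for Arc and Homer1 and 3 each for Homer2 and Homer3. Depth was recovered from the spacing of RPKM values of RNAs under 200 nt, with a length 34 nt shorter than annotated. Promoter windows are from RefSeq (GRCm38.p6) and transcripts from GENCODE M21. Alternatives were other pseudocounts, filters and scalings, array weights, no trend, only the 2 groups compared, a replicate block, each mouse left out and, chosen after seeing the data, a correction for GC content.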

Additional observations from a re-analysis of the deposited data

Results flagged for a closer look

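For 6 genes named above the distance from clean air differed between the 2 time points, by the limma test of 120 min against 30 min over all tested genes. Arc fell by 2.84 ± 0.29 on the log2 scale (adjusted p = 0.00344), lower in all 3 mice at 120 min than in any at 30 min. The difference was -2.88 ± 0.33 for Fos (adjusted p = 0.0055), -2.61 ± 0.22 for Junb (0.000695), -2.52 ± 0.37 for Cyr61 (0.0477), -2.37 ± 0.35 for Egr1 (0.0489) and -1.65 ± 0.18 for Dusp1 (0.00524). Homer1 was not among them. Groups of 3 mice are too small for the search for single mice that stand apart.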

How the results depend on the processing

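Over 16 results, 300 alternative values were computed: 276 kept their direction and side of the threshold, 6 passed where the reported value did not, 18 changed sign and none was lost. The 2 calls of Arc held throughout (leaving out single mice, 3.26 to 3.95 at 30 min and -2.94 to -2.72 from 30 to 120 min). The mouse numbers were not treated as pairs: same-numbered mice had correlated deviations of 0.081 to 0.444, over 0.1 in 7 of 9 pairs, although 9 of 9 mice correlated best with their own number. With the replicate block Homer1 passed at 120 min against clean air (1.63, adjusted p = 0.0252), and with the GC correction and the block together as well (1.62, adjusted p = 0.0449); the block changed no other call of the 4 genes. Without single mice Homer1 ranged from 1.23 to 1.88 there (adjusted p 0.162 to 0.61) and from -0.013 to 0.64 at 30 min. Without single mice the Arc to Homer1 ratio (120 min minus 30 min) ranged from -4.30 to -3.81, Homer1 to Homer2 (120 min minus clean air) from 0.85 to 1.61 and Homer1 to Homer3 from 1.017 to 2.27. The first passed only without clean air mouse 1 or 2 (-4.08 for either), and the others only without clean air mouse 2 (1.61 and 2.27). With the block the exact permutation test gave an adjusted p of 0.148 for each of the 3. That test swaps groups only within a mouse number, which leaves few assignments. A single ratio could not pass it after adjustment over the 4, so this outcome decides little. The sign changes were in Homer1, Homer2 and Homer3 differences that were not called. Homer3 gave -0.011 and -0.0012 at 30 min with median ratio and upper quartile scaling, -0.061 and -0.030 at 30 and 120 min with array weights, and -0.084 from 30 to 120 min with the GC correction, with or without the block. Without single mice it ranged from -0.39 to 0.32, -0.39 to 0.33 and -0.19 to 0.21 in the 3 comparisons, and Homer2 from -0.11 to 0.15 between 30 and 120 min. The cause was not tested. The number of all tested genes called was 18, 11 and 10 in the 3 comparisons; at 120 min against clean air it was 2 with only those groups in the fit, 4 with the GC correction and block, and 0 to 11 without single mice (0 without clean air mouse 2 or 120 min mouse 3). With an inferred 109 reads per kilobase or more behind each value of the 4 genes, precision rests mainly on 3 mice per group.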
